A study of Arabidopsis thaliana with 12 samples.

Results

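PIFI, NdhS and CRR21 are nuclear genes of the chloroplast NADH dehydrogenase-like (NDH) complex that had an array probe of their own in Arabidopsis thaliana plants kept dark overnight. They were taken as the probes that the platform annotation assigns to these genes alone. This gave 3 of the 691 features with 1 named gene, among 3438 features in all (1 probe each, probes of the same gene averaged). They were chosen by function after some of their values in this same comparison, prors2 against wild type, had been seen, so their differences between the groups are given as a description, with no test. The study compared 6 samples of the mutant prors2 (prors2_dark) with 6 of wild type (WT2_dark), both described by their labels as total RNA of plants adapted to darkness overnight. The wild type is ecotype Columbia 0, and the mutant is described as without prolyl-tRNA synthetase, the enzyme that loads tRNA with proline. The sources used here do not give its allele or background, the tissue or the age of the plants. The source label reads wild type for the mutant samples too, so the groups rest on the sample titles.

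The NDH complex sits in the thylakoid membrane, takes electrons from ferredoxin and passes them to plastoquinone. It takes part in cyclic electron flow around photosystem I and in chlororespiration, the reduction and oxidation of plastoquinone in the dark. Some of its subunits are encoded in the plastid genome and made on plastid ribosomes, and others are encoded in the nucleus and imported. NdhS (AT4G23890, also called CRR31) is a nuclear-encoded subunit of the part that docks ferredoxin. PIFI (AT3G15840), named after a rise of chlorophyll fluorescence once light is switched off, is a stromal factor needed for NDH-dependent plastoquinone reduction but is not one of the known subunits. CRR21 (AT5G55740) is a pentatricopeptide repeat protein needed for C-to-U editing of the plastid ndhD transcript. The genes lie on chromosomes 3 (PIFI), 4 (NdhS) and 5 (CRR21). The gene table of assembly TAIR10.1 lists 5 RefSeq transcripts for PIFI and 1 each for NdhS and CRR21, and the value of the PIFI probe cannot be split among its transcripts.

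The signal of the whole array differed between the groups, which bears on every value below. The median deposited intensity of a sample lay between 0.240 and 0.403 in prors2 and between 0.0620 and 0.0852 in wild type. Of the 3439 probes, 431 to 609 were listed at 0 in a prors2 sample and 746 to 926 in a wild-type sample. Within a group, samples came in like pairs by number (1 with 2, 3 with 4, 5 with 6), with correlations across 1940 features of 0.958 to 0.986 within and 0.851 to 0.915 between such pairs in prors2, and of 0.904 to 0.937 within and 0.859 to 0.905 between them in wild type. Whether a pair comes from separate plants is not stated, so each spread over 6 samples may be partly technical. Standard errors of the differences over all samples take the samples of a pair as separate, so they may be too small. In bulk RNA, fewer cells of a type and less RNA per cell cannot be told apart.

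Whether the 3 genes moved together depended on the scale. The mean deposited intensity was higher in prors2 for all 3, at 1.31 times that of wild type for NdhS and 1.81 times for CRR21. Most features tested were brighter in the mutant as well. With no normalization, their log2 differences (prors2 minus wild type) centred on a median of 1.49. NdhS (0.20) and CRR21 (0.88) lay below this median, and PIFI (2.56) lay above it. The 269 brightest features, which include NdhS, had a median of -0.07 on that scale. PIFI was higher in every prors2 sample than in every wild-type sample, with a mean intensity 5.99 times that of wild type. As deposited, 49.3% of the 1940 features listed above 0 in all samples had such a gap. PIFI stayed higher under all 29 other settings tried. These draw on the same 12 samples, and how many other features kept their direction was not counted. NdhS was bright in both groups and higher in prors2 samples 1, 2, 5 and 6, but lower in prors2 samples 3 and 4. CRR21 had a higher deposited intensity in every prors2 sample, but a lower mean after the distributions of the samples had been made equal (quantile normalization). No call is given for these 3 genes. The fit over all features (limma, adjusted p under 0.05) called 45.6% of the 2684 features tested, so a difference between the groups was common on this array.

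NdhS, the subunit, had deposited intensities of 6.69, 6.77, 1.86, 1.84, 5.80 and 6.11 in prors2 samples 1 to 6, against 3.89, 3.95, 3.13, 3.01, 3.86 and 4.29 in wild-type samples 1 to 6. The prors2 values fell into a high set of 4 and a low set of 2, with every wild-type value between them. The means were 4.85 ± 2.35 in prors2 and 3.69 ± 0.502 in wild type (SD, n = 6 each). On the deposited scale the spread of prors2 was 48.4% of its mean, against 13.6% in wild type.

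**Figure D1:**
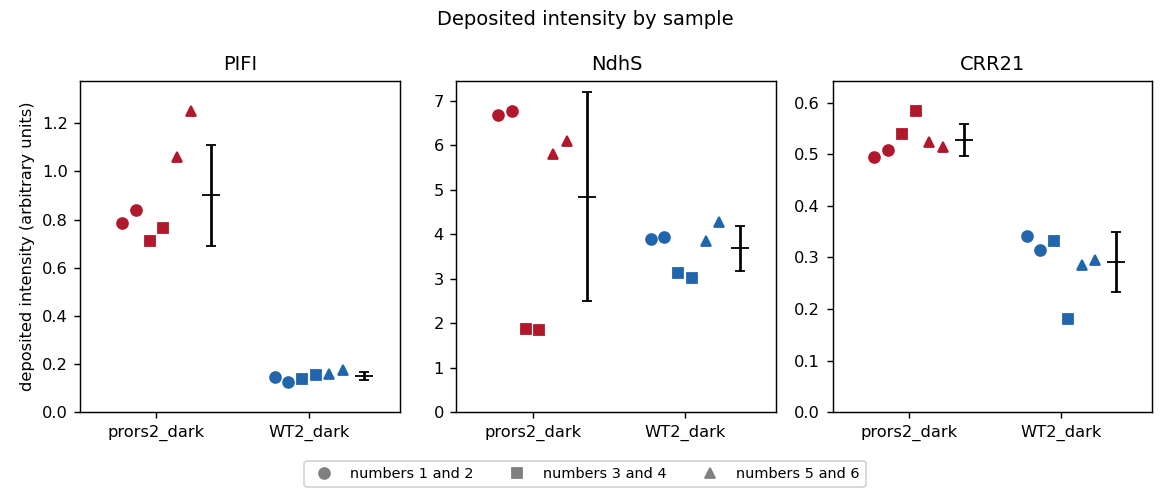
Deposited intensity (arbitrary units, axes from 0) of PIFI, NdhS and CRR21 in each of the 6 prors2_dark (left, red) and 6 WT2_dark samples (right, blue). Marker shapes show samples with consecutive numbers, and the black bars give the mean and SD of each group. PIFI and CRR21 have all prors2 values above all wild-type values, as do 49.3% of the 1940 features above 0 in all samples. The NdhS values of prors2 samples 3 and 4 lie below all wild-type values.

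The 2 samples of each pair gave nearly the same NdhS value. The higher was 1.01, 1.01 and 1.05 times the lower in the prors2 pairs and 1.02, 1.04 and 1.11 times in the wild-type pairs. Set beside the wild-type samples of the same numbers, to which the labels give them no link, the prors2 pairs differed in direction. The ratio of the deposited means was 1.72 for samples 1 and 2, 0.604 for samples 3 and 4, and 1.46 for samples 5 and 6.

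The same split remained after quantile normalization. Normalized log2 intensities of NdhS were 2.98, 2.96, 1.01, 0.998, 2.76 and 2.83 in prors2, against 1.83, 1.90, 1.68, 1.56, 1.78 and 1.84 in wild type. The difference of these means, prors2 minus wild type, was 0.49 ± 0.38 (log2, standard error). Within the pairs it was 1.103 for samples 1 and 2, -0.62 for samples 3 and 4, and 0.99 for samples 5 and 6, and without samples 3 and 4 of both groups it was 1.05 ± 0.14. The sign of the NdhS difference thus depended on which prors2 pair was looked at, and all prors2 values outside samples 3 and 4 were above all wild-type values. These samples were set apart after their values had been seen, and the features with a like separation were not counted. The error of 0.14 takes the samples of a pair as separate, so it may be too small.

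Few features shared this shape. The SD of NdhS over the prors2 samples, 0.97 on the normalized log2 scale, was above that of 93.7% of the 1940 features listed above 0 in all 12 samples, whose median SD was 0.44. Its SD over the wild-type samples, 0.12, was above that of only 6.65% of these features, whose median there was 0.36. In prors2 samples 3 and 4, NdhS lay 1.75 below the lowest of the other 4 prors2 samples on that scale. Of the 1940 features, 62 (3.2%) had both samples at least 1 below the other 4, and 0 had both at least 1 above. The arrays of prors2 samples 3 and 4 also had the lowest medians and the most probes at 0 of the prors2 group. Wild-type samples 3 and 4 likewise had the lowest medians (0.0620 and 0.0646) and the most probes at 0 (926 and 916) of their group. They also held the lowest wild-type NdhS intensities, 3.13 and 3.01. The part of these array differences in the NdhS values was not tested.

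NdhS remained among the brightest features in every sample. It lay above 98.0% to 98.3% of the probes in prors2 samples 1, 2, 5 and 6, above 94.6% in samples 3 and 4, and above 96.5% to 97.1% in wild type. This place in the order does not depend on the scale of a sample. Its direction did depend on the scaling: median centring of each sample gave NdhS a log2 difference of -1.39, where the 269 brightest features, to which it belongs, had a median of -1.66. With quantile normalization the median of these 269 was 0.10.

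PIFI, the associated factor, had deposited intensities of 0.785, 0.839, 0.709, 0.765, 1.06 and 1.25 in prors2 samples 1 to 6, against 0.148, 0.125, 0.139, 0.155, 0.160 and 0.174 in wild-type samples 1 to 6. The lowest prors2 value was several times the highest wild-type value. The means were 0.901 ± 0.209 in prors2 and 0.150 ± 0.0168 in wild type (SD, n = 6 each). The ratio of the means was 5.93 for samples 1 and 2, 5.01 for samples 3 and 4, and 6.91 for samples 5 and 6. Without overlap in this direction, PIFI is 1 of 957 features, or 49.3% of the 1940 listed above 0 in all samples. With no normalization its log2 difference was 2.56, and the median over all features tested was 1.49.

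Normalization made the PIFI difference smaller and kept its direction. Normalized log2 intensities were -1.11, -0.88, -0.59, -0.44, -0.28 and 0.08 in prors2, against -2.02, -2.22, -1.96, -1.88, -1.95 and -1.86 in wild type. The groups again had no overlap, as in 14.4% of the 1940 features in this direction. The difference was 1.44 ± 0.20 (log2, standard error), and the median over all features was 0.09. Of the 2684 features tested, 397 had a higher difference than PIFI.

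PIFI varied more among the mutant samples than among those of wild type, as did the array by its median SD (0.44 against 0.36). The normalized SD of PIFI was 0.43 in prors2, near that median, and 0.13 in wild type, above only 8.04% of the 1940 features. The log2 difference within the pairs was 1.12 for samples 1 and 2, 1.41 for samples 3 and 4, and 1.80 for samples 5 and 6. After median centring PIFI had a log2 difference of 0.98, against a median of -0.19 over the 268 features of like brightness. Its place in the order of probes was also higher in every mutant sample: PIFI lay above 75.5% to 88.9% of the probes in prors2 and above 59.7% to 67.4% in wild type.

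**Figure D2:**
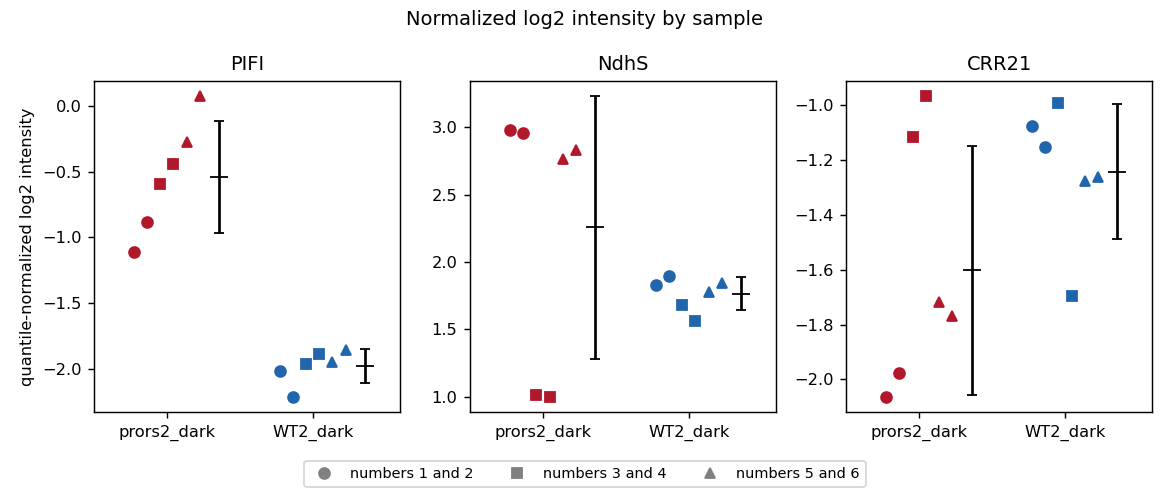
Quantile-normalized log2 intensity of the same genes in each prors2_dark (left, red) and WT2_dark sample (right, blue), with marker shapes for samples with consecutive numbers and bars for mean and SD. PIFI keeps a gap between the groups, as do 14.4% of the 1940 features above 0 in all samples in this direction. Values of prors2 samples 3 and 4 lie at about 1.0 for NdhS below all others, and the groups overlap for CRR21.

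CRR21, the editing factor, had deposited intensities of 0.494, 0.509, 0.539, 0.583, 0.524 and 0.514 in prors2 samples 1 to 6, against 0.342, 0.315, 0.332, 0.181, 0.286 and 0.294 in wild-type samples 1 to 6. All mutant values were above all wild-type values. The means were 0.527 ± 0.0313 in prors2 and 0.292 ± 0.0585 in wild type (SD, n = 6 each), a ratio of 1.81. This is the shape of 49.3% of features on that scale, and the log2 difference with no normalization, 0.88, was below the median of all features, 1.49.

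After quantile normalization CRR21 turned. Its normalized log2 intensities were -2.06, -1.98, -1.12, -0.97, -1.72 and -1.77 in prors2, against -1.08, -1.15, -0.99, -1.70, -1.28 and -1.26 in wild type. Mutant samples 1, 2, 5 and 6 lay below every wild-type sample, while mutant samples 3 and 4 lay within or just above the wild-type range. The difference was -0.36 ± 0.22 (log2, standard error). Within the pairs it was -0.91 for samples 1 and 2, 0.30 ± 0.30 for samples 3 and 4, and -0.47 for samples 5 and 6. The positive value within samples 3 and 4 includes the lowest wild-type sample, 4 (-1.70), beside wild-type sample 3 (-0.99). Without samples 3 and 4 of both groups the difference was -0.69 ± 0.16, an error that again takes the samples of a pair as separate.

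On the normalized scale mutant samples 3 and 4 thus stood apart for CRR21 as for NdhS, but in the other direction. For CRR21 a gap of this size was common. Its prors2 pair means spanned 0.98, above the span of 58.8% of the 1940 features, whose median was 0.86. As deposited, its prors2 pair means were close, 0.501, 0.561 and 0.519, so most of that gap was in the normalized values. Samples 3 and 4 are the arrays with the lowest medians in prors2, and also in wild type. The part of this in the CRR21 values was not tested. In wild type, sample 4 of CRR21 was the lowest, and the higher of samples 3 and 4 was 1.84 times the lower, against 1.09 and 1.03 in the other wild-type pairs. CRR21 lay above 57.9% to 78.6% of the probes in prors2 and above 70.4% to 80.7% in wild type, so its place in the order overlapped between the groups. After median centring the log2 difference of CRR21 was -0.70, against a median of -0.74 over the 269 features of like brightness.

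**Figure D3:**
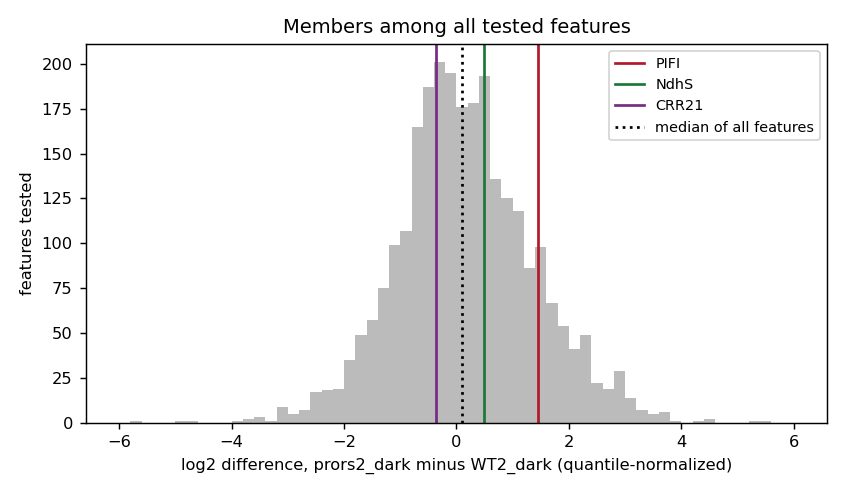
Number of tested features (vertical axis) by normalized log2 difference, prors2_dark minus WT2_dark (horizontal axis), for all 2684 features tested. Coloured lines mark PIFI at 1.44, NdhS at 0.49 and CRR21 at -0.36, and the dotted line marks the median of all features at 0.09. NdhS and CRR21 lie in the dense middle, with 980 and 1785 features above them, and 397 features lie above PIFI.

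**Figure D4:**
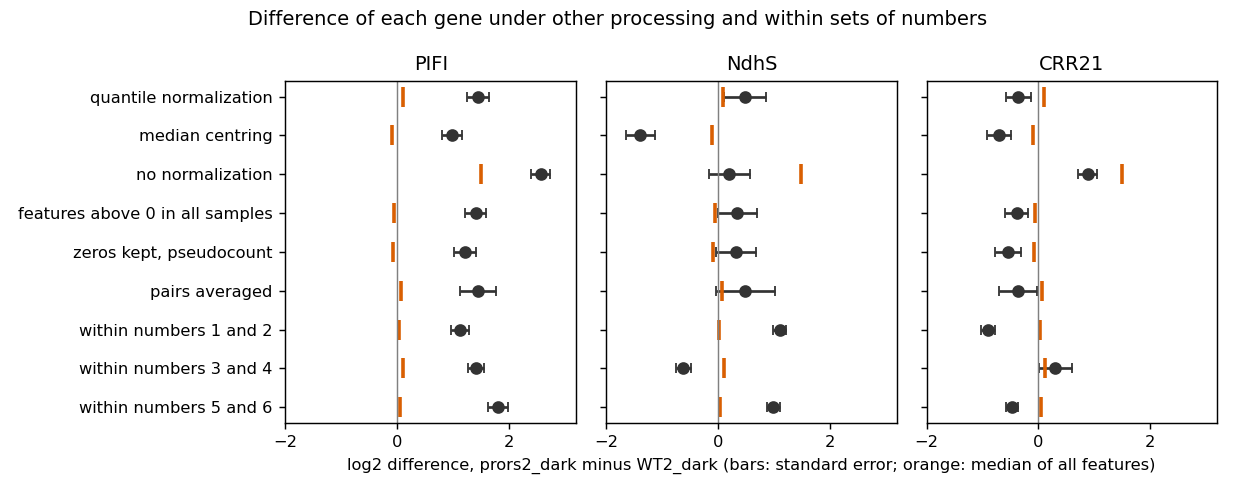
Log2 difference (prors2_dark minus WT2_dark, horizontal axis) of PIFI, NdhS and CRR21 under 9 settings, with standard errors as bars and the median of all features as orange ticks. PIFI lies above 0 in each of the 9, and NdhS changes sign with median centring and within samples 3 and 4. CRR21 changes sign with no normalization and, at 0.30 with a standard error of 0.30, within samples 3 and 4.

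The plot of differences by setting shows the values of each pair under the values of all samples. The bars within a pair hold only the gap between consecutive samples of each group and the spread borrowed from other features, so they understate the error of the comparison. For NdhS the gaps between pairs of the same group exceeded those bars: the pair means of prors2 spanned 1.96 on the normalized log2 scale, and the largest gap inside a pair was 0.07.

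Other genes of the pathway were taken from lists of 63 loci that include the 3 members: plastid-encoded and nuclear-encoded subunits, assembly, linker and associated proteins, RNA factors for ndh transcripts, and other genes of cyclic electron flow or chlororespiration. Loci were matched to probes through the TAIR10.1 gene table only, which leaves 2 of the 692 single-gene probes unmatched, and whether either of these belongs to the lists was not settled. Of the 60 other loci, 4 matched a probe of their own in this way: the subunit gene NdhN, Cpn60beta4, CRR41 and OTP85. The plastid-encoded subunits and the other genes of cyclic electron flow had 0 such matches. After the filter (at least 3 values above 0 in each group) 1 of the 4, Cpn60beta4, was tested, and it passed as higher, while 0 passed as lower (the fit called 45.6% of all features). It did not pass with the pairs as a random block, that is with an estimated correlation of consecutive samples (limma, adjusted p = 0.128). Its log2 difference was 1.11, against a median of 0.09 over all features tested.

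Cpn60beta4 (AT1G26230) is a plastid chaperonin subunit needed to fold the NDH subunit NdhH. Its deposited intensities were 0.190, 0.185, 0.201, 0.192, 0.475 and 0.414 in prors2, against 0.0235, 0, 0.0187, 0.0411, 0.0215 and 0.0384 in wild type. All mutant values were above all wild-type values, and wild-type sample 2 was listed at 0 and left out of the normalized mean. Such a gap was common, at 49.3% of the 1940 features listed above 0 in all samples, which do not include Cpn60beta4. Every wild-type value lay below the lowest wild-type array median, 0.0620. The values of prors2 samples 1 to 4 also lay below their array medians (0.403, 0.387, 0.240 and 0.244). Those of prors2 samples 5 and 6 lay above theirs (0.362 and 0.364). Its normalized difference was 1.11 ± 0.39 (log2, standard error; limma, adjusted p = 0.0362). With the samples of a pair averaged it was 1.15 and did not pass (limma, adjusted p = 0.124), in a fit that called 20.9% of its features. On the normalized scale the groups overlapped, since prors2 samples 1 and 2 (-3.93 and -3.91) lay below wild-type samples 4 and 6 (-3.48 and -3.71). Leaving out any 1 of prors2 samples 3 to 6 or of wild-type samples 1, 3 and 5 also ended the call, with differences of 0.90 to 1.11.

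The other 3 genes were listed at 0 in most samples and had no test. NdhN (AT5G58260), a nuclear-encoded subunit of the stromal arm, was above 0 in prors2 sample 6 (0.0137) and in wild-type samples 5 (0.0553) and 6 (0.000443). CRR41 (AT1G51100), an assembly factor of that arm, was above 0 only in wild-type sample 1 (0.00635). OTP85 (AT2G02980), an editing factor for ndhD like CRR21, was above 0 in prors2 sample 1 (0.0153) and in wild-type samples 1 (0.0425), 2 (0.000501) and 3 (0.0193). Each of these values lay below the array median of its sample, and what a value of 0 stands for is not stated in the labels.

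**Figure D5:**
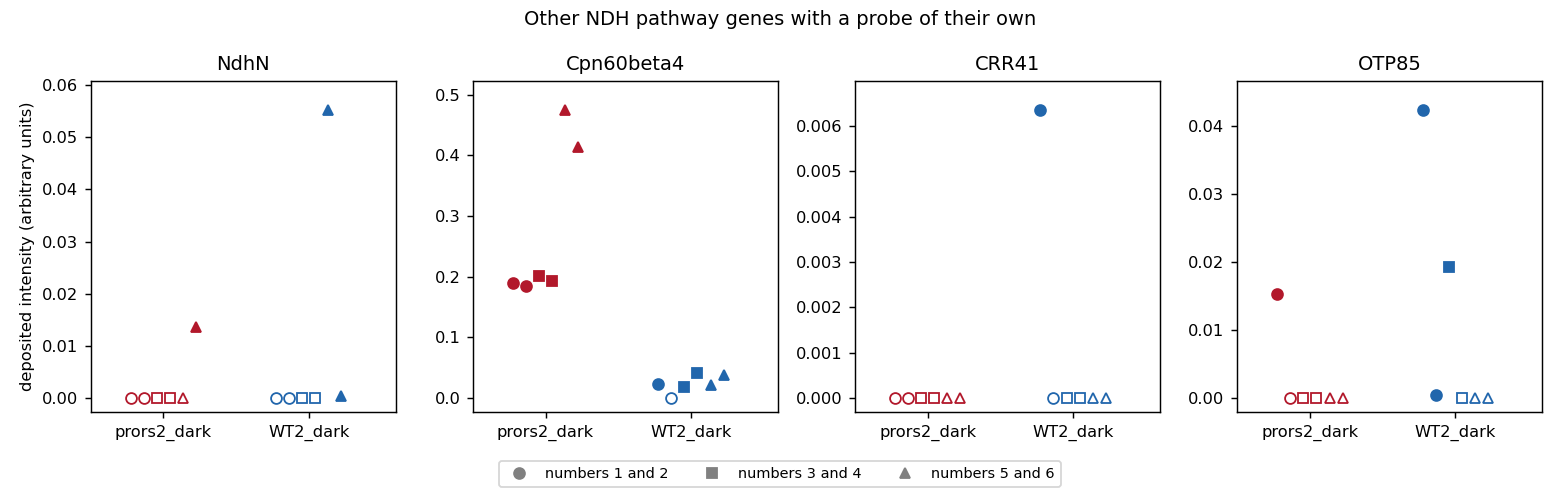
Deposited intensity (arbitrary units, each panel with its own axis) of NdhN, Cpn60beta4, CRR41 and OTP85 in each prors2_dark (left, red) and WT2_dark sample (right, blue). Open markers are values listed at 0. The prors2 values of Cpn60beta4, from 0.185 to 0.475, lie above all wild-type values. This was so for 49.3% of the 1940 features above 0 in all samples. The other 3 genes have 1 to 4 values above 0 among 12 samples.

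The genes whose normalized log2 intensity ran most like each member were sought among the 367 other features with 1 named gene and 12 values above 0. For PIFI these were AT2G03390 (Pearson's r = 0.96), AT5G02710 (0.96) and AT5G38310 (0.96) over the 12 samples. They had log2 differences of 1.57, 1.49 and 1.40, near that of PIFI, and 21 of the 367 features had r above 0.9. Around the group means the correlations with PIFI were 0.85, 0.78 and 0.70, so part of the likeness was the shared difference between the groups.

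For NdhS the most similar features were CCL (AT3G26740; r = 0.87), AT2G35450 (0.85) and AT1G73120 (0.84). Their correlations around the group means were nearly as high, 0.86, 0.83 and 0.82. CCL had mean intensities of 2.36 ± 0.689 in prors2 and 2.02 ± 0.151 in wild type (SD, n = 6 each). For CRR21 they were AT2G04540 (0.82), AT1G15410 (0.81) and AT3G54210 (0.81), the last a gene for protein L17 of the plastid ribosome. The difference of AT3G54210 was -0.52 on the normalized log2 scale, with mean intensities of 0.80 ± 0.13 in prors2 and 0.71 ± 0.19 in wild type (SD, n = 6 each). These correlations rest on 12 samples in 3 pairs a group and were picked as the highest of 367, so they are a description only.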

How the data were processed

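Transcripts were measured by array in 12 samples, 6 a group. The deposited intensities are on a linear scale in arbitrary units, with exact zeros and a common upper limit. The sources used here do not say how the authors obtained these intensities. Of 3439 probes, 692 list 1 gene in the platform annotation, 870 several and 1877 have no entry. The TAIR10.1 gene table matched 690 of the 692 and gave names and chromosomes only.

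Zeros were set to missing. Other values were log2-transformed and quantile-normalized, and probes of a gene averaged. The filter was at least 3 values above 0 per group, and features of like brightness are those in the same 10% by mean log2 intensity. limma 3.58.1 (lmFit, eBayes; R 4.3.3, statmod 1.5.0) compared the groups, 2-sided, with Benjamini-Hochberg adjustment over 2684 features and a threshold of 0.05. The fit was tested on simulated data in which all samples varied independently, so that test does not cover the like pairs. The number of arrays limits the precision. Adjusted p-values are too small where like pairs come from the same RNA.

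The members, the lists and the alternatives were chosen with earlier results of these data known. The genes named are the members, the list genes with a probe of their own, and for each member the 3 most similar features.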

Additional observations from a re-analysis of the deposited data

How the results depend on the processing

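PIFI was higher in prors2 in all 29 other settings, which draw on the same 12 samples. Its log2 difference was 0.98 with median centring, 2.56 with no normalization, and 1.12 and 1.80 within samples 1 and 2 and within samples 5 and 6. NdhS turned to -1.39 with median centring and to -0.62 within samples 3 and 4. CRR21 turned to 0.88 with no normalization and to 0.30 (standard error 0.30) within samples 3 and 4, and was -0.91 within samples 1 and 2. Leaving out 1 sample at a time gave 1.32 to 1.56 for PIFI, 0.35 to 0.74 for NdhS and -0.49 to -0.27 for CRR21. The features called over the whole array were 2013 with no normalization (1869 higher, 144 lower), 515 with pairs averaged and 671 with pairs as a random block (consensus correlation 0.702), against 1225, and 1122 to 1187 with 1 sample left out. With median centring 653 were higher and 905 lower, against 671 and 554. Of the other pathway genes, 1 passed, and 0 did so with zeros kept and a pseudocount of 0.01, with pairs averaged, with pairs as a random block, without samples 3 and 4, without samples 5 and 6 and within samples 3 and 4. With 1 sample left out, 0 to 1 did. For Cpn60beta4, 13 of 26 settings ended the call, with limma's adjusted p between 9.4e-06 and 0.249 over all of them. It had no value with features above 0 in all samples, with the dimmest 25% left out, and within samples 1 and 2. The cause of these changes was not tested. With the number in the sample titles as a replicate block, 1208 features were called and the 3 members kept their differences. Same-numbered samples of the groups had correlations of 0.053 to 0.164 in their deviations from the group means, and 4 of 6 prors2 samples correlated best with their own number, a hint of shared numbers. Numbers 3 and 4 had the lowest correlations (0.0681 and 0.0535). No cutoff was set for these correlations, so they do not settle whether the numbers pair the samples. With a term for each pair of numbers (1 and 2, 3 and 4, 5 and 6) common to both groups, 1456 features were called, against 1225. The members kept their differences, with standard errors of 0.14 (PIFI), 0.26 (NdhS) and 0.21 (CRR21), against 0.20, 0.38 and 0.22. The errors were larger with pairs as a random block, at 0.26 (PIFI), 0.40 (NdhS) and 0.31 (CRR21). With pairs averaged they were 0.32 (PIFI), 0.53 (NdhS) and 0.34 (CRR21). What the groups share by number was not tested. Signals near 0 limit NdhN, CRR41 and OTP85, and in wild type Cpn60beta4.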
